A study of Homo sapiens with 5 samples.

Results

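The subject is the set of places in the genome of human HEK293 cells where an antibody against FOXK1 (from Abcam) recovered more DNA than the matching input. Its members are all peaks of the deposited FOXK1 list on chromosomes 1 to 22 and X, which came to 21481 of the 21697 peaks in that list and of 194759 peaks in the 3 lists of the series. Chromatin immunoprecipitation with sequencing (ChIP-seq) was done in Flp-In HEK293 T-REx cells, an embryonic kidney line with a recombination site for transgenes and a tetracycline repressor. The labels name no transgene, treatment or genotype beyond the line itself, which all libraries share. The FOXK1 library and its control, an input of DNA taken without immunoprecipitation, both came from chromatin preparation 62. The ASXL1 and O-GlcNAc libraries of the series came from preparation 63, and the effects of the antibody cannot be told apart from those of the preparation wherever FOXK1 is set beside them.

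FOXK1 is a transcription factor with a forkhead domain, which binds DNA, and a forkhead-associated domain, which binds phosphorylated partner proteins. It is known for bringing the SIN3 corepressor complex to genes of autophagy, for moving between nucleus and cytoplasm with nutrient and mTOR signalling, and for binding BAP1, the histone H2A deubiquitinase that works with ASXL proteins. ASXL1 and O-GlcNAc, the sugar that OGT adds to nuclear proteins, were the other targets of the series. They serve here as readouts that the FOXK1 peaks can be set against, since they were measured in other libraries.

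A peak is a stretch with more sequenced tags than the input, and its score is the number that the authors' peak caller gave it, which ranks peaks within the list. There was 1 FOXK1 library, so no value has a replicate error and no p-value was computed. The number of reads is unknown. Intervals beside shares are 95% Wilson intervals. They cover counting error only and treat peaks as independent, which neighbouring peaks are not. Gene names and DNA sequences are not given for the sites, because no gene annotation or sequence of the build (hg19) was used here, and whether a forkhead motif lies under a peak was not analysed here.

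Most FOXK1 peaks were narrow. The median width was 436 bp, the middle 50% of widths ran from 364 to 623 bp, and the 95th percentile was 1091 bp. The class of 300 to under 500 bp held 11201 peaks (52.1%) and that of 500 to under 1000 bp held 7095 (33.0%). Below and above these lay 1716 peaks under 300 bp (7.99%) and 1359 peaks of 1000 to under 2000 bp (6.33%). A last class of 2000 bp or more had 110 members (0.512%). The narrowest peak measured 164 bp and the widest 29681 bp. Sonication had given fragments that averaged 150 to 400 bp, per the labels' protocols. Together the peaks covered 11.7 Mb, or 0.385% of the chromosome length used.

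Scores piled up at the lower end of the list. They started at 50 and had a median of 76.3, and 10484 peaks (48.8%) lay between 50 and 75. A score of at least 100 was reached by 7246 peaks (33.7%, interval 33.1 to 34.4). The class from 200 to under 500 held 2055 peaks and the class from 500 upward 459 (2.14%), of which 85 exceeded 1000. The highest score, 3100, was shared by 10 peaks, of which 9 overlapped no peak of the other lists. Of all FOXK1 peaks, 51.7% overlapped a peak of either list. Of the 10, 6 lay in stretches without any peak of the other lists and could not overlap, and 1 of the other 4 overlapped ASXL1. The 9 peaks lay within 2.43 Mb of the longest peak-free stretch of their chromosome, described further on. The score of 3100 recurs in 304 ASXL1 and 47 O-GlcNAc peaks, with 34 and 13 peaks above it. It thus acts as a near ceiling of the score and gives no order among the peaks that share it.

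**Figure D1:**
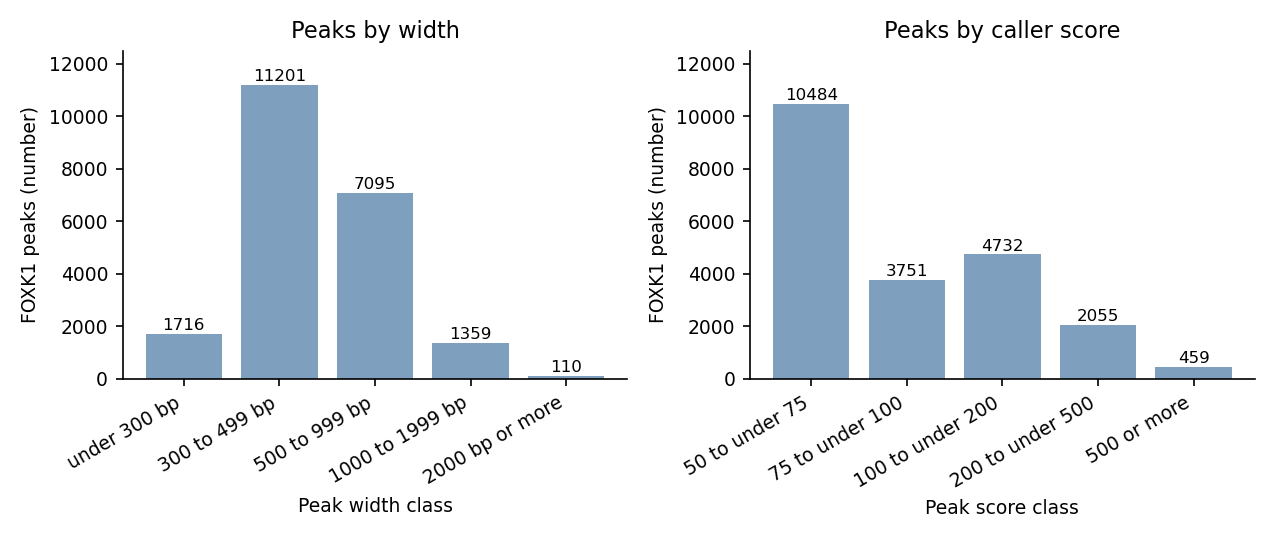
Number of FOXK1 peaks (vertical axis) in 5 classes of width in bp (left) and 5 classes of caller score (right), with the count above each bar. The largest classes are 300 to under 500 bp with 11201 peaks and scores of 50 to under 75 with 10484 peaks.

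Width and score went together, with Spearman's rho at 0.49 across the 21481 peaks of this library. The median width was 385 bp in the lowest score class, 569 bp from 100 to under 200, and 899 bp at 500 or more. Widths and scores come from the same tags, so this relation describes the list and was not tested. It had exceptions at both ends. Of the peaks of 1000 to under 2000 bp, 202 (14.9%) scored under 75, and 17 peaks of 300 to under 500 bp scored 500 or more.

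The width of a FOXK1 peak went with whether another target was found at the same place. Of all FOXK1 peaks, 42.7% overlapped an ASXL1 peak, 38.1% an O-GlcNAc peak and 51.7% a peak of either list by 1 bp or more. Among peaks under 300 bp, 293 of 1716 overlapped ASXL1 (17.1%, interval 15.4 to 18.9). Among those of 1000 to under 2000 bp, 1237 of 1359 did (91.0%, interval 89.4 to 92.4). For O-GlcNAc the shares in the same classes were 16.3% (14.6 to 18.1) and 86.2% (84.3 to 88.0). A wider peak has more bases that can meet another peak. When only the centre of the FOXK1 peak had to lie inside the other peak, the ASXL1 shares were 15.3% and 84.25%, and the O-GlcNAc shares 14.8% and 76.45%.

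At equal score the order by width was kept up to 2000 bp among peaks that scored under 500. Among peaks that scored from 50 to under 75, the share in ASXL1 was 15.2% under 300 bp (912 peaks, interval 13.1 to 17.7) and 18.4% at 300 to under 500 bp (7734 peaks, 17.5 to 19.3). It was 60.5% at 500 to under 1000 bp (1627 peaks, 58.1 to 62.8) and 95.05% at 1000 to under 2000 bp (202 peaks, 91.1 to 97.3). The strongest peaks of 500 to under 1000 bp, with scores of 500 or more, stood at 88.7% of 256 (84.2 to 92.0), an interval that overlaps that of the weakest broad peaks. Within the narrower classes the share went up with score. At 300 to under 500 bp the ASXL1 share was 31.9% for scores of 75 to under 100, 43.0% for 100 to under 200 and 54.6% for 200 to under 500. Within 1000 to under 2000 bp it did not rise with score, since peaks of 500 or more had 88.1% (81.8 to 92.4).

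The rise with width did not continue in the widest and strongest peaks. Of the 43 peaks that were at least 2000 bp wide and scored 500 or more, 13 overlapped ASXL1 (30.2%, interval 18.6 to 45.1) and 13 overlapped O-GlcNAc, against 42.7% and 38.1% of all FOXK1 peaks. The interval, which is the same for both targets, includes both of these values. Of the 43, 16 lay in stretches without any peak of the other lists, and without them the share was 48.1% of 27 (30.7 to 66.0). Where these broad peaks lay on the chromosomes divided them, as described further on.

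**Figure D2:**
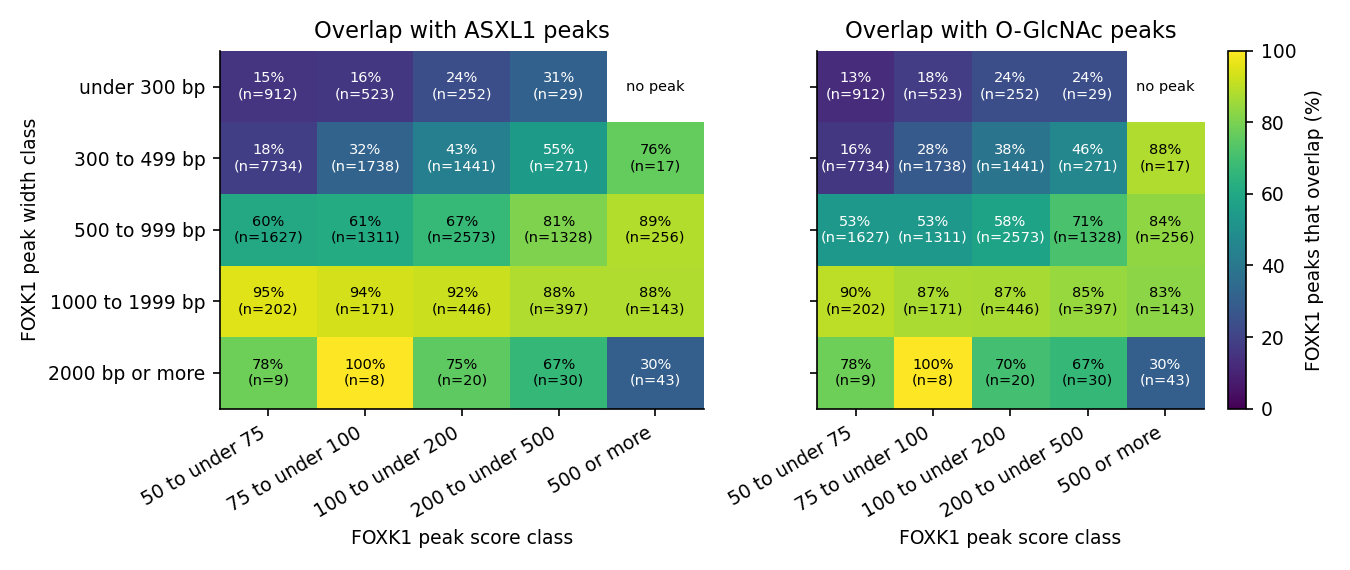
Share of FOXK1 peaks that overlap an ASXL1 peak (left) or an O-GlcNAc peak (right), as colour and percent, for each class of FOXK1 width (rows, bp) and score (columns), with the number of peaks in brackets. Shares rise downward from under 300 bp to 1000 to under 2000 bp at every score under 500 and fall in the lowest row at high scores, to 30.2% of 43 peaks.

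Neighbouring peaks were mostly far apart, with a minority in close groups. The distance between the centres of neighbours on a chromosome had a median of 46.4 kb, and the middle 50% ran from 11.8 to 135 kb. Of 21458 such distances, 863 (4.02%) were within 1 kb, 3297 (15.4%, interval 14.9 to 15.8) within 5 kb and 4909 (22.9%) within 10 kb. Measured between peak edges, 1027 gaps (4.79%) were 500 bp or shorter. In the 1792 pairs with centres within 2 kb, the higher score had a median of 125 and the lower of 64.65, with a median ratio of 1.62.

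By median distance, strong peaks had nearer neighbours than weak ones. The median distance to the nearest other FOXK1 peak was 22.8 kb for scores of 50 to under 75 and fell through 18.1, 16.1 and 12.9 kb to 11.35 kb for scores of 500 or more. The share with a neighbour within 5 kb went from 23.4% in the lowest class to 33.0% at 200 to under 500, and was 30.9% at 500 or more. By width, it was 23.9 kb under 300 bp and 15.1 kb at 1000 to under 2000 bp. Peaks in the class of 2000 bp or more had their nearest neighbour at a median of 7.91 kb, and 37.3% of them had one within 5 kb, against 25.2% at 300 to under 500 bp, 28.8% at 500 to under 1000 bp and 27.4% at 1000 to under 2000 bp.

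Runs were formed by linking peaks whose centres lay within 5 kb of the next. Of all peaks, 15809 (73.6%) stood alone, and 1853 runs held 2 peaks, 366 held 3 and 91 held 4. A further 65 runs held 5 or more, with 504 peaks (2.35%) between them. The share that overlapped ASXL1 was 41.35% for peaks that stood alone, 49.2% in runs of 2 and 47.4% in runs of 3, against 42.7% of all peaks. In runs of 5 or more it was 22.2%, and in the 15 runs of 10 or more it was 9.18% of 207 peaks. These shares joined runs of opposite kinds, which were divided by the distance to the longest peak-free stretch of the chromosome, described further on. Within 3 Mb of it lay 36 of the 65 runs of 5 or more, with 7 of 334 peaks in ASXL1 (2.10%, 55 of the 334 being inside a stretch without any peak of the other lists). In the 29 runs farther away, 105 of 170 peaks were in ASXL1 (61.8%, interval 54.3 to 68.7). Of the 15 runs of 10 or more, 13 were near, and the 2 far ones had 18 of 22 peaks in ASXL1.

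The longest run lay at chr4:49118636-49158705, with 23 peaks over 40.1 kb, a highest score of 3100 and no peak in common with ASXL1 or O-GlcNAc. Next came chr10:39093712-39130513 with 18 peaks, chr7:61780003-61801356 with 16, and chr10:39135448-39154126 and chr21:10773345-10799078 with 15 each. In these runs 1 peak overlapped ASXL1, on the second chromosome 10 run, and O-GlcNAc met 1 peak of the first chromosome 10 run and 4 peaks on chromosome 21. Runs of 14 peaks lay at chr10:38775384-38798682 and chr11:51567193-51593622. Those of 13 peaks were at chr2:90371442-90393519, chr2:91595202-91616048 and chr16:33865082-33883793. The 3 runs of 11 peaks were of both kinds. That at chr7:61973886-61991189 met neither target, while those at chr5:124070733-124086202 and chr12:1311933-1335926 had 8 and 10 of their peaks in ASXL1 and 7 and 4 in O-GlcNAc.

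**Figure D3:**
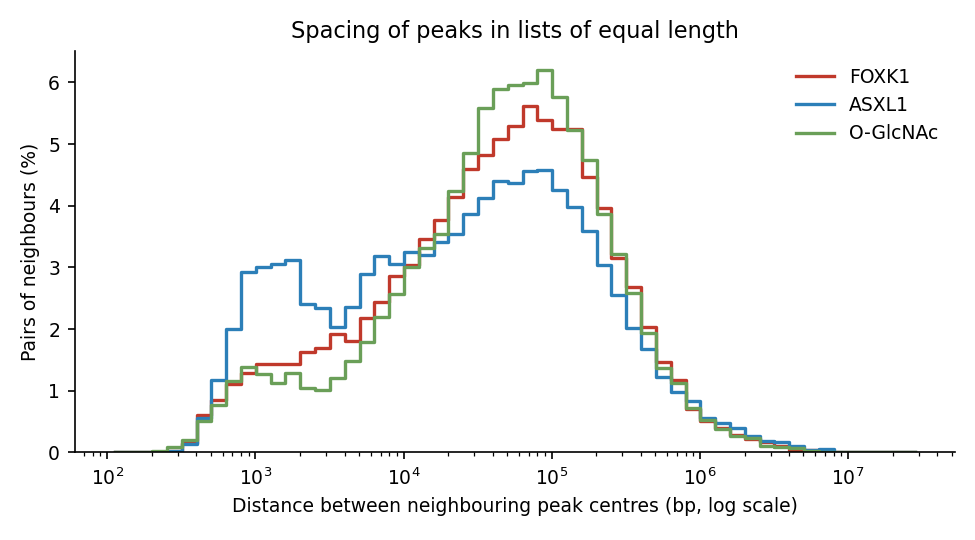
Distance between the centres of neighbouring peaks (horizontal, bp, log scale) against the percent of neighbour pairs, for the FOXK1 list and for as many of the highest-scoring ASXL1 and O-GlcNAc peaks (21481 in each). Summed below 5 kb, FOXK1 has 15.4% of pairs against 25.1% for ASXL1 and 12.6% for O-GlcNAc, while the order of the curves changes from bin to bin below 1 kb.

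To find where the close groups lay, each chromosome was divided into bins of 100 kb. FOXK1 peaks occupied 11253 bins, of which 6240 held 1 peak and 641 held 5 or more. Dense bins, with 10 or more peaks, numbered 57 on 19 chromosomes and held 790 peaks. At the edge of this definition, 25 bins held 9 peaks and 16 held 10, with median scores of 80.8 and 85.5 and with 42.7% and 34.4% of peaks in ASXL1. Chromosomes 13, 18, 19 and 22 had no dense bin, chromosome 1 had 10, and chromosome 6 had 8. Peaks in dense bins had a median width of 508 bp (434 bp elsewhere) and a median score of 96.9 (75.6 elsewhere).

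The position of a dense bin was described by its distance to the longest stretch of its chromosome without a peak in any of the 3 lists. As background, centromeres are unsequenced gaps in hg19, as is most of the short arms of the acrocentric chromosomes, so a list made on that build has no peaks in them. The stretches found ran from 3.001 Mb on chromosomes 4 and 7 to 21.1 Mb on chromosome 1, and on chromosomes 13, 14, 15, 21 and 22 they began at the chromosome's first base. They were read from the lists and not from an annotation of the build, so a stretch may not be the centromere gap, as on chromosome 21, where peaks follow a stretch that starts at the first base. A distance of 3 Mb, set after the values had been seen, divided the dense bins into 30 near and 27 far ones, and the near bins lay at most 2.69 Mb and the far bins at least 11.3 Mb away. Since the stretches were chosen to hold no peak, overlap next to them is in part fixed in advance. On 19 chromosomes, 242 FOXK1 peaks lay wholly inside the longest stretch free of ASXL1 and O-GlcNAc peaks, so that their overlap was 0 by construction. They included 6 of the 10 peaks at the highest score and 23 of the 207 peaks in runs of 10 or more, where the ASXL1 share was 10.3% of the other 184.

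Dense bins near and far from the stretch differed in what else was found in them. The 30 near bins held 455 peaks, of which 29 overlapped ASXL1 (6.37%, interval 4.47 to 9.004) and 31 O-GlcNAc (6.81%, 4.84 to 9.51). Without the 102 peaks whose overlap was 0 by construction, 29 of 353 overlapped ASXL1 (8.22%, 5.78 to 11.5) and 31 O-GlcNAc (8.78%, 6.26 to 12.2). Chromosome 1 carried most of this overlap, since its 6 near bins had 26 of 73 peaks in ASXL1 (35.6%, 25.6 to 47.1), against 3 of 382 in the other 24 near bins (0.785%, 0.267 to 2.28), where 92 could not overlap by construction. In 22 of the 30 bins no FOXK1 peak overlapped ASXL1, and the median number of ASXL1 peaks of any kind in the bin was 0. Both values were in part fixed in advance, since 9 of the 30 bins held a peak inside a stretch free of the other lists. Among the 21 bins without such a peak, 15 had no overlap with ASXL1, and 27 of their 323 peaks overlapped it (8.36%). The 27 far bins held 335 peaks, of which 211 overlapped ASXL1 (63.0%, 57.7 to 68.0) and 156 O-GlcNAc (46.6%, 41.3 to 51.9), against 42.7% and 38.1% of all FOXK1 peaks. A far bin had a median of 17 ASXL1 and 14 O-GlcNAc peaks of its own. Widths and scores did not separate them as clearly, with medians of 537 bp and 103 near the stretch and 470 bp and 91.1 far from it.

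Among the 10 bins with most peaks, 8 were near the stretch. They were the bins that begin at 39.1 Mb on chromosome 10 (31 peaks), 10.7 and 10.8 Mb on chromosome 21 (26 and 21), 49.1 Mb on chromosome 4 (23), 33.8 Mb on chromosome 16 (22), 61.7 Mb on chromosome 7 (22), 61.8 Mb on chromosome X (20) and 89.8 Mb on chromosome 2 (18). Of the 183 peaks in these 8 bins, 2 overlapped ASXL1 and 8 O-GlcNAc, against 42.7% and 38.1% of all FOXK1 peaks. The chromosome 10 bin bordered the stretch, where overlap is in part fixed in advance. The other 2 bins went the opposite way. At 73 Mb on chromosome X all 18 peaks overlapped ASXL1 and 12 overlapped O-GlcNAc, in a bin with 29 ASXL1 peaks. At 124 Mb on chromosome 5, 11 of 17 peaks overlapped ASXL1 and 10 overlapped O-GlcNAc, and a bin at 14.1 Mb on the same chromosome had as many peaks and the same overlaps.

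Besides the near bins of chromosome 1 with overlap, of which that at 143.9 Mb had the highest share, 1 far bin there had the lowest share among far bins. The former lay 1.37 Mb from the stretch, and 11 of its 14 peaks overlapped ASXL1. The far bin, at 183 Mb, lay 40.5 Mb away, and 2 of its 12 peaks did.

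**Figure D4:**
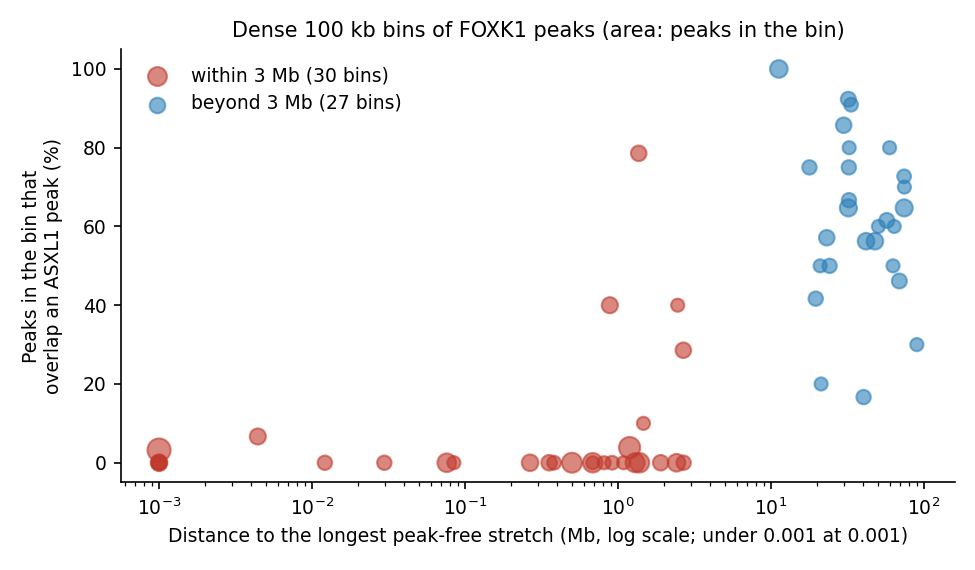
The 57 dense bins of 100 kb by their distance to the longest peak-free stretch of the chromosome (horizontal, Mb, log scale, with distances of 0 drawn at the left edge) and by the percent of their FOXK1 peaks that overlap an ASXL1 peak (vertical). Point area is the number of FOXK1 peaks in the bin. Near bins lie at or close to 0% with a few exceptions up to 78.6%, and far bins lie between 16.7% and 100%.

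Single peaks, those of the dense bins included, were then grouped by distance. Within 0.1 Mb of the stretch lay 287 FOXK1 peaks, of which 225 were inside a stretch free of the other lists and could overlap neither. Of the remaining 62, 3 overlapped ASXL1 (4.84%, interval 1.66 to 13.3) and 4 overlapped O-GlcNAc (6.45%, 2.54 to 15.4). From 0.1 to 1 Mb, with 17 such peaks left out, the shares were 12.5% and 13.8% of 383 peaks, from 1 to 3 Mb 32.6% and 30.3% of 733, and beyond 3 Mb 44.2% and 39.35% of 20061. With the dense bins left out as well, the ASXL1 share was 3.85% of 26 peaks up to 0.1 Mb (0.682 to 18.9), 17.7% of 237 up to 1 Mb (13.4 to 23.1), 38.8% of 562 up to 3 Mb (34.9 to 42.9) and 43.9% of 19726 beyond (43.2 to 44.6). Chromosome 10 had 44 of the 287 peaks, chromosome 5 had 27 and chromosome X had 23, and chromosomes 13 and 21 had none. Of the 110 peaks of 2000 bp or more, 47 lay within 3 Mb of the stretch, with a median score of 709. Of these, 25 could overlap neither list, and 4 of the other 22 were in ASXL1 (18.2%, interval 7.31 to 38.5). The other 63 had a median score of 217, and 59 of them were in ASXL1 (93.7%).

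Peaks next to the stretch were a larger part of the FOXK1 list than of the other lists. Within 1 Mb lay 687 FOXK1 peaks (3.20%, interval 2.97 to 3.44), 704 ASXL1 peaks (0.748%, 0.695 to 0.805) and 595 O-GlcNAc peaks (0.756%, 0.698 to 0.819). When ASXL1 and O-GlcNAc were cut to their 21481 strongest peaks, 0.624% and 0.712% lay there. FOXK1 peaks in part set the ends of the stretches. With stretches taken from the other 2 lists alone, 3.33% of FOXK1 peaks lay inside or within 1 Mb. The ASXL1 and O-GlcNAc shares were not recomputed with those stretches, so this value does not check the difference between the lists. Each list is 1 library and FOXK1 came from another preparation, so the difference has no replicate check.

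Along the chromosomes, FOXK1 peaks were densest on chromosome 6, with 1940 peaks or 11.35 per Mb, followed by chromosome 1 with 10.6 and chromosome 10 with 10.5. The median chromosome had 6.29 per Mb. The lowest densities were 4.45 on chromosome 18, 4.55 on chromosome 4 and 4.63 on chromosome X, so that the highest was 2.55 times the lowest. The end of the last peak in any list stood for the chromosome length. Lengths thus include the peak-free stretches, such as 21.1 Mb on chromosome 1 and 3.11 Mb on chromosome 6. The order of chromosomes with close densities can depend on this. Leaving out dense bins lowered chromosome 21 most, from 7.59 to 6.61 per Mb, and kept chromosomes 6, 1 and 10 in front. With scores of at least 100, the order was chromosome 6 (3.79 per Mb), 17 (3.73) and 19 (3.604), with X last at 1.31. The densities of the 23 chromosomes ran parallel to those of the other lists, with Spearman's rho at 0.85 for ASXL1 and 0.92 for O-GlcNAc, a description of lists that share the genome and its mappable length.

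Chromosomes also differed in the kind of peak. Chromosome 19 had the widest FOXK1 peaks, with a median of 616 bp (interval of the median 579 to 667), and the highest median score, 86.0. It had the highest share in ASXL1, 60.3% (56.1 to 64.4), and in O-GlcNAc, 62.0% (57.8 to 66.1). It also had the most ASXL1 and O-GlcNAc peaks per Mb, 73.6 and 41.6. It was followed in width by chromosome 17 at 516 bp, chromosome 22 at 508 bp and chromosome 16 at 506 bp. Chromosomes 13 and X had the narrowest, at 401 bp each, and X had the lowest median score, 68.5, and the smallest share at 100 or more, 28.4%. Chromosome 21 had the lowest share in ASXL1, 26.85% (22.6 to 31.6), and in O-GlcNAc, 26.6% (22.3 to 31.3). Its dense bins at 10.7 and 10.8 Mb hold 47 of its 365 peaks, and the part they have in these shares was not tested. Away from them, windows of 5 Mb with FOXK1 peaks had ASXL1 shares from 19.05% at 40 to 45 Mb to 54.55% at 45 to 50 Mb. The window with most peaks, at 35 to 40 Mb, had 28.6% of 119.

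**Figure D5:**
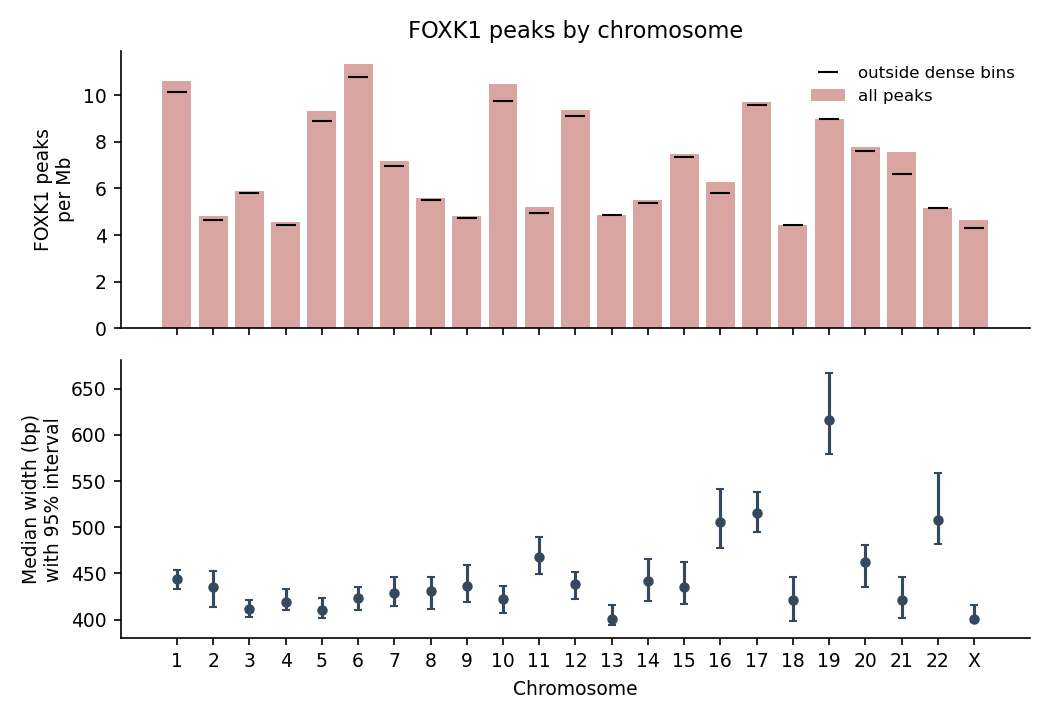
FOXK1 peaks per Mb (top, bars for all peaks and dashes for peaks outside dense bins) and median peak width in bp with its 95% interval (bottom) for chromosomes 1 to 22 and X. Chromosome 6 is the densest at 11.35 per Mb, and chromosome 19 has the widest peaks at a median of 616 bp.

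At a finer scale, windows of 5 Mb held a median of 33 FOXK1 peaks where they held any (593 of 620 windows). The 60 windows with most peaks, about 10% of those occupied, held 5080 peaks (23.7%). The densest window lay at 25 to 30 Mb on chromosome 6, with 188 peaks, of which 127 were outside dense bins. Of its FOXK1 peaks, 82.45% were met by ASXL1 and 69.15% by O-GlcNAc. The second, at 230 to 235 Mb on chromosome 1, had 138 peaks, of which 30.4% overlapped ASXL1 and 32.6% O-GlcNAc. Of all FOXK1 peaks, 42.7% overlapped ASXL1 and 38.1% O-GlcNAc. The first window held 539 ASXL1 and 429 O-GlcNAc peaks, and the second 361 and 431. At the other end, 27 windows held no FOXK1 peak, of which 21 held no peak of any list. The other 6 held ASXL1 or O-GlcNAc peaks, the most at 135 to 140 Mb on chromosome 8 with 29 and 44. A further 6 windows held 1 FOXK1 peak. Of the 3 full-length ones among these, those at 80 to 85 Mb on chromosome 2 and 25 to 30 Mb on chromosome X still held 20 ASXL1 peaks each, and that at 90 to 95 Mb on chromosome X held 31.

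The strongest sites were taken as the 25 highest-scoring peaks after dense bins had been left out. They lay on 10 chromosomes, scored from 1503.97 to 3100 and were 580 to 12514 bp wide. The 26th peak, the first one not taken, scored 1472.23. Of the 25, 18 overlapped ASXL1 (72%, interval 52.4 to 85.7) and 18 O-GlcNAc, against 42.7% and 38.1% of all FOXK1 peaks, and 17 overlapped both. The bin rule did not remove all peaks next to the peak-free stretches, where 8 of the 25 lay.

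Of those 8 sites, 6 met no peak of the other lists, and 5 of the 6 scored 3100. All but the one that starts at 42596615 lay inside a stretch free of the other lists, where overlap was 0 by construction. They were chr10:42354859-42367372 (12514 bp), chr4:49638561-49645683 (7123 bp), chr6:58773549-58780249 (6701 bp), chr4:49633308-49638518 (5211 bp), chr10:42596615-42600743 (4129 bp) and, with a score of 2941.55, chr10:42367410-42372222 (4813 bp). All 6 were within 0.242 Mb of the stretch and wider than any other of the 25. The other 2 overlapped both targets: chr1:145438009-145438742 (score 2228.51, 734 bp) at 2.90 Mb and chr19:30334906-30336947 (score 1854.16, 2042 bp) at 2.58 Mb.

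The 17 sites farther away were of another form, with widths from 580 to 2008 bp and a median of 957 bp. Of them, 16 overlapped ASXL1 and 16 O-GlcNAc, and 15 overlapped both. The strongest was chr15:101874033-101874989 (957 bp), the only peak at 3100 that met another list. The ASXL1 peak there scored 1668.05, above 98.3% of that list, and the O-GlcNAc peak scored 3100, above 99.9% of its list. The centres of the 3 peaks lay within 32.5 bp of that of FOXK1.

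Next was chr17:79367566-79368439, with a FOXK1 score of 3073.19. Its ASXL1 and O-GlcNAc peaks stood above 88.8% and 91.5% of their lists, and another FOXK1 peak lay 1.54 kb away. On chromosome 12, the sites chr12:120763071-120763715 (score 2685.53) and chr12:120754896-120755946 (score 1960) were 7.97 kb apart. The first had an O-GlcNAc peak but no ASXL1 peak, and the second had both. The site chr1:202779383-202780384 scored 2269.22, with the centre of its O-GlcNAc peak 6 bp away.

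Both sites on chromosome 3 were among the strongest of ASXL1 too. At chr3:15642786-15643717 FOXK1 scored 2216.93 and the ASXL1 peak stood above 98.1% of its list. At chr3:129034702-129035866 the score was 2207.54 and the ASXL1 peak stood above 99.5%. In both places the O-GlcNAc peak ranked lower, above 94.85% and 94.7% of its list. The nearest other FOXK1 peak lay 37.6 kb from the first and 83.2 kb from the second site.

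Chromosome 6 had chr6:1396873-1397527 (score 1963.79) and chr6:15949401-15950205 (score 1821.85). The first stood higher among O-GlcNAc peaks (above 94.7%) than among ASXL1 peaks (above 79.6%). The second was the reverse, with 95.6% for ASXL1 and 39.9% for O-GlcNAc, the lowest O-GlcNAc rank of the 25. At this site a strong FOXK1 peak went with a weak O-GlcNAc peak.

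Chromosome 17 had 5 of the 17 sites. Besides the one at 3073.19 they were chr17:2303763-2305770 (score 1789.79), chr17:56756356-56757677 (1630.35), chr17:58754326-58755570 (1608.45) and chr17:57642631-57643210 (1503.97). At chr17:56756356 the ASXL1 peak scored 3100, above 99.6% of its list. At chr17:57642631, the narrowest of the 25 with 580 bp, O-GlcNAc stood above 98.4% and ASXL1 above 83.0%.

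The remaining 4 were chr19:41902848-41904133 (1607.62), chr10:99078547-99079437 (1594.68), chr8:95907690-95908590 (1548.31) and chr19:41426266-41427730 (1545.20). The site on chromosome 10 had a weak ASXL1 peak, above 60.8% of its list, and no O-GlcNAc peak. On chromosome 8 the ASXL1 peak was centred 655 bp from the FOXK1 centre, the largest offset of the 17, whose median offset was 87 bp for ASXL1 and 107 bp for O-GlcNAc.

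Further down the ranking, sites far from the stretch had a high share of overlap. For near sites a change along the ranking is not shown. Of the 8 near sites among the 25 strongest, 5 could not overlap by construction, and 2 of the other 3 overlapped ASXL1 (66.7%, interval 20.8 to 93.85). Of the 100 strongest peaks outside dense bins, 86 lay more than 3 Mb from the stretch, with a median width of 916 bp, and 82 of them overlapped ASXL1 (95.35%, interval 88.6 to 98.2) and 79 O-GlcNAc (91.9%, 84.1 to 96.0). The 14 nearer ones had a median width of 3342.50 bp, and 7 of them overlapped ASXL1. Among ranks 26 to 100, 5 of the 6 near sites overlapped ASXL1 and 5 O-GlcNAc, beside 66 and 63 of the 69 far ones. Of the 500 strongest, which scored at least 456, 439 overlapped ASXL1 (87.8%, 84.6 to 90.4) and 415 O-GlcNAc (83.0%, 79.5 to 86.0). Both shares exceed those of all FOXK1 peaks by more than their counting error.

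Set beside lists of equal length, FOXK1 was neither the most clustered nor the least. Its 57 dense bins compare with 167 for the 21481 highest-scoring ASXL1 peaks and 26 for as many O-GlcNAc peaks. Near the peak-free stretch, however, FOXK1 had 30 dense bins, against 3 for ASXL1 and 0 for O-GlcNAc. With all peaks of the longer lists kept, the order turned for ASXL1, which then had 83 such bins, and O-GlcNAc had 16. The median width of 436 bp was the same as that of the O-GlcNAc peaks (436 bp) and below that of the ASXL1 peaks (740 bp). With all peaks kept, the widths of the other lists were 269 bp for ASXL1 and 231 bp for O-GlcNAc, so the order of widths depended on how many weak peaks a list held.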

How the data were processed

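One FOXK1 ChIP-seq library was used as a list of peaks, with the ASXL1 and O-GlcNAc lists as side readouts. The input libraries were not analysed here. The submitters' processing notes name Bowtie2 2.0.0, MACS 1.4 and the build hg19, and peak names in the files carry the prefix MACS. Settings, read filters and depth are not given in the sources used here. The deposited value of each peak is the score that the authors' caller gave it, taken within a list alone. It has the form of 10 times a negative log10 of a p-value, which no label states.

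Widths, distances, bins and overlaps of at least 1 bp were computed with Python 3.11.15, numpy 2.4.6, pandas 2.3.3 and scipy 1.17.1, and the code was tested on simulated data. Positions count from 1, and bins use the deposited start. Equal-length lists took the highest scores, with ties broken by width. Intervals of medians are binomial. Named sites were the 25 strongest and 5 widest peaks outside dense bins, the 10 dense bins with most peaks, the 10 longest runs, and the densest and sparsest 5 Mb windows that held a FOXK1 peak. The peaks and rules were chosen with earlier results of these data known. Chromosome 1 exceptions, runs of 11 peaks and the 3 Mb division were chosen after values were seen. Gene starts, gene lists and promoter motifs were planned and not run, since the reference used is of another build.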

Additional observations from a re-analysis of the deposited data

How the results depend on the processing

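No paired analysis was possible because there was 1 library for each antibody. Leaving out a replicate could not be tried either. The results on gene starts, gene lists and promoter motifs were not run. The centre rule, the 3 Mb distance and its alternatives, the stretches of 2 lists, the peaks inside them and leaving out chromosome 1 or dense bins near the stretch were chosen after seeing the data. For the changes below, the cause was not tested, beyond that a stricter score leaves fewer peaks.

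A score of at least 100 left 7246 of 21481 peaks, a median width of 624.5 bp, 9.23% of neighbours within 5 kb, a median distance of 131 kb, 10 dense bins with 136 peaks, and 4.03% of peaks within 1 Mb of the stretch. Without dense bins, 13.5% of neighbours were within 5 kb and the median distance was 50.3 kb. The gap between edges put 16.4% within 5 kb. Joining gaps of up to 500 bp gave 11.03%, 51.6 kb, and 33 dense bins with 424 peaks. A minimum of 5 peaks gave 641 dense bins with 4248 peaks, and 20 gave 7 with 165.

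With the centre rule, the ASXL1 share was 15.3% under 300 bp and 84.25% at 1000 to under 2000 bp, and the O-GlcNAc share of the latter was 76.45%. Without peaks within 3 Mb of the stretch, the shares at 1000 to under 2000 bp were 96.3% and 91.4%. Without peaks that could overlap neither list by construction, the ASXL1 share within 0.1 Mb of the stretch was 4.84% in place of 1.05%, and without dense bins as well it was 3.85%. Without chromosome 1, the ASXL1 share in near dense bins was 0.785% in place of 6.37%. In all, 23 of 51 alternatives stayed within the interval or 1.5 times the value. When nothing was left out, 20 of the 25 strongest sites were the same and 13 overlapped ASXL1. When peaks near the stretch were left out as well, 17 were the same and 24 overlapped ASXL1. Depth is unknown, so a place without a listed peak is not shown to lack FOXK1.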

Other observations

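The FOXK1 list held 216 further peaks outside chromosomes 1 to 22 and X, which entered no result above. Of these, 97 were on chromosome Y, with a median score of 97.0, 2 in common with ASXL1 and 5 with O-GlcNAc. The remaining 119 lay on 16 other contigs, 41 of them on a single contig, with a median width of 584 bp. They had 15 in common with ASXL1 and 20 with O-GlcNAc. On chromosomes 1 to 22 and X the median score was 76.3, with 42.7% in ASXL1 and 38.1% in O-GlcNAc. Whether the peaks listed on chromosome Y are places bound there was not tested. Within 200 kb of a chromosome end lay 65 peaks of the main set (0.303%), against 0.392% of ASXL1 and 0.282% of O-GlcNAc peaks. The 5 widest peaks outside dense bins included chr16:46385721-46415401 (29681 bp), chr4:49093204-49117977 (24774 bp) and chr5:49433893-49441751 (7859 bp), beside 2 of the strongest sites. The first of these 3 scored 153, below the median of 321.5 for peaks of 2000 bp or more. None of the 3 overlapped another list, which for those on chromosomes 16 and 5 was fixed by construction, since they lay inside a stretch free of the other lists.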
